A study of Mus musculus with 16 samples.

Results

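The homodimer-enhancing mutant Oct4 S151M and unmutated Oct4 were compared as bound in fibroblasts after day 1 of reprogramming. The members are the ChIP-seq summits of both Oct4 libraries on chromosomes 1 to 19, X and Y, 8199 for Oct4 and 101151 for Oct4 S151M, out of 226962 summits in 13 libraries of the series. A summit is the base where a called peak is highest, and a summit of one library was called shared when a summit of the other lay within 100 bp. Both cultures were OG2 mouse embryonic fibroblasts, which carry a GFP reporter driven by Oct4 regulatory sequence, transduced with pMX retroviruses for Sox2 and Klf4 (SK) in iCD1 medium. In addition they received either Oct4 or Oct4 S151M, and both chromatin samples were precipitated with the same Oct4 antibody. Each group is 1 library of a mixed transduced population, so no difference below has a replicate check and none was tested for significance. The intervals given are 95% intervals for counting error among sites only. The lists differ 12.3-fold in length, and the files do not give the depth of the libraries, so the main comparisons were repeated with the 8199 strongest Oct4 S151M summits, as given beside them. The score is the −log10 p that the peak caller gave each summit. Its median was 11.3 and its maximum 311 for Oct4, against 19.5 and 1235 for Oct4 S151M, and the Oct4 S151M summit at rank 8199 still scored 121. Depth, binding strength and the quality of the precipitation cannot be told apart in these lists.

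Oct4, the product of Pou5f1, is a POU factor whose DNA-binding region consists of a POU-specific domain and a POU homeodomain joined by a linker. On the SoxOct element it binds beside Sox2, which contacts the adjoining Sox half-site, and this pairing is the hallmark of pluripotent enhancers. On the MORE, a palindrome of POU half-sites, POU factors bind as homodimers, and neural POU factors such as Oct6 do so more cooperatively than Oct4. The residue exchanged in S151M takes part in this preference: the mutation puts the Oct6 residue into Oct4 and favours the homodimer. The octamer ATGCAAAT is bound by single POU molecules, and the PORE is another homodimer element.

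The sequences below are reference sequence of the mouse build mm10 (GRCm38), written 5′ to 3′ on the strand that carries the motif, with the motif match in capitals. Shared sites were ranked by the mean of their score percentiles in both libraries and the others by the score in their own library. The sequences were taken from the top 3 of each kind by that ranking, with promoters taken as within 1 kb of a coding start, because they show which element lay under which protein. In this search a MORE was a half-site ATGCAT or ATGAAT followed directly by ATGCAT or ATTCAT, with 1 mismatch allowed; MORE+1 had 1 further base between the half-sites. The SoxOct was a Sox half-site, 1 free base and the octamer, with 2 mismatches allowed. Matches were sought on both strands within 100 bp to either side of a summit, and overlapping matches of different motifs were all counted.
Shared, MORE, intron of Sort1, chr3:108304886-108304945: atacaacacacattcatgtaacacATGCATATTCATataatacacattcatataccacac
Shared, MORE, intron of Kremen1, chr11:5237901-5237960: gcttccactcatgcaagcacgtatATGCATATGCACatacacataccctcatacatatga
Shared, MORE, promoter of Crlf2 (450 bp from its start, in an intron), chr5:109558420-109558479: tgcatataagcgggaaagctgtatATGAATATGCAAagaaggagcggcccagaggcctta
Shared, SoxOct, between genes nearest Sec16b, chr1:157646043-157646105: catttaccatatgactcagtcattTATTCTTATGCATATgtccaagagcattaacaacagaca
Shared, SoxOct, intron of Nr1h4, chr10:89487452-89487514: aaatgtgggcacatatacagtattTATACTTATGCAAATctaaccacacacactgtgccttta
Oct4 S151M only, MORE+1, between genes nearest Ttc30a1, chr2:75985555-75985615: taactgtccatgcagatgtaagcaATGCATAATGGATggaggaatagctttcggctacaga
Oct4 S151M only, MORE+1, intron of Gnb1, chr4:155533258-155533318: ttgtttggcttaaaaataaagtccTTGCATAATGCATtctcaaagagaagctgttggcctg
Oct4 S151M only, MORE, promoter of Gnb1l (365 bp from its start, outside coding genes), chr16:18498323-18498382: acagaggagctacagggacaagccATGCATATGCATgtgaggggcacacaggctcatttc
Oct4 only, no POU motif, between genes nearest Hic2, chr16:17222341-17222401: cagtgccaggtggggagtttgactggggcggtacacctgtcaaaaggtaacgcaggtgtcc

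The Sort1 site was the highest summit of the whole Oct4 S151M list, with a score of 1235, and stood at rank 4 in Oct4 with 220. The Kremen1 site was the highest Oct4 summit, with a score of 311 in Oct4 and 1123 in Oct4 S151M. The Crlf2 site scored 153 and 1177. All 3 carry a MORE without a SoxOct element. The Nr1h4 site, which carries a SoxOct match overlapping an exact octamer, scored 209 in Oct4 (rank 7 of 8199) and 430 in Oct4 S151M (rank 1190 of 101151). Both mismatches of this SoxOct match lie in its Sox half-site. The Sec16b SoxOct site scored 87.7 and 499, and a further SoxOct site between coding genes, nearest Akr1d1, 52.7 and 465. All 3 SoxOct sites were far up both lists too, and ranks in lists of such unequal length are not compared here. At the Nr1h4 and Sec16b sites no Sox2 summit from day 1 of Oct4-SK cultures lay within 100 bp. At the site nearest Akr1d1 such a Sox2 summit scored 26.5. Of the sites without an Oct4 summit within 100 bp, the MORE+1 near Ttc30a1 reached a score of 1121 and the nearest Oct4 summit was 5810 bp away. The Gnb1 site scored 1095 and the Gnb1l site 1089, with the nearest Oct4 summits 265762 bp and 443949 bp away. Outside chromosome 18, the highest site of Oct4 without Oct4 S151M, near Hic2, scored 105 and held none of the POU motifs searched. The next Oct4-only sites, nearest Axin2 and Gtf3c3, scored 94.9 and 82.2 and held none either. An Oct4 S151M summit of score 155 lay 139 bp from the one nearest Gtf3c3, just outside the sharing distance.

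Most Oct4 sites were also Oct4 S151M sites, while few Oct4 S151M sites were Oct4 sites. Of the 8199 Oct4 summits, 6422 (78.3%, 77.4 to 79.2%) had an Oct4 S151M summit within 100 bp. At positions 10 kb to either side of Oct4 summits the share was 1.04%. In reverse, 6410 of 101151 Oct4 S151M summits (6.34%, 6.19 to 6.49%) had an Oct4 summit, against 0.0845% at positions 10 kb away. Within 50 bp the Oct4 share was 62.1% and within 250 bp 88.5%. The median distance between paired summits was 25 bp, with quartiles of 11 and 46 bp. Of the 1777 Oct4 summits without a partner, 917 (51.6%) nevertheless lay inside a called Oct4 S151M peak, so that about 9 in 10 Oct4 summits (89.5%) fell in an Oct4 S151M peak. At equal list lengths the overlap was far smaller. With the strongest 8199 summits of each, 1670 Oct4 sites (20.4%, 19.5 to 21.3%) were shared. The share was 17.4% (14.3 to 20.97%) for the strongest 500 of each list, 18.5% for 1000 and 19.1% for 2000. The strongest 500 Oct4 sites were almost all somewhere in the Oct4 S151M list (97.6%), and the strongest 500 Oct4 S151M sites were in the Oct4 list in 57.4% of cases. For the strongest 1000, 2000 and 4000 Oct4 S151M sites this share was 44.4%, 35.3% and 26.8%. The top of the Oct4 list was thus mostly found in the mutant list, while beyond the strongest 500 most of the top mutant sites had no Oct4 summit.

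**Figure D1:**
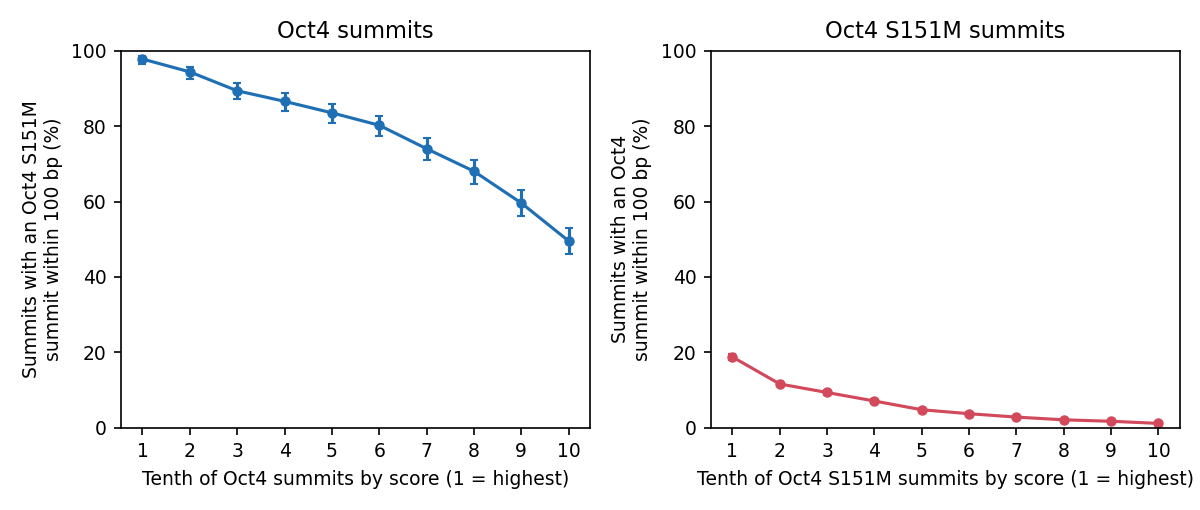
Share of summits (%) with a summit of the other library within 100 bp, by score rank in 10 equal groups per library; points are shares and bars 95% Wilson intervals. The share falls from 97.8% to 49.6% from the highest to the lowest Oct4 group and from 18.8% to 1.18% over the Oct4 S151M groups.

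The motifs under the sites differed in opposite directions for MORE and SoxOct. MORE or MORE+1 was present at 885 of 8199 Oct4 sites (10.8%) and at 25313 of 101151 Oct4 S151M sites (25.02%), a difference of 14.2 points (13.5 to 14.9). Among the 8199 strongest Oct4 S151M sites the share was 45.1%, which is 34.3 points above Oct4. SoxOct was present at 15.1% of Oct4 sites, 5.86% of Oct4 S151M sites and 4.87% of the strongest Oct4 S151M sites, so it was 9.21 and 10.2 points lower with the mutant. The directions held under stricter and looser matching, but the size followed the match rule. With 1 mismatch fewer over the whole lists the MORE difference was 1.69 points and the SoxOct difference −1.32, and with 1 more they were 25.1 and −19.7. Windows 2 kb to either side of the summits held MORE or MORE+1 in 0.994% for Oct4 and 0.943% for Oct4 S151M, and SoxOct in 1.09% and 1.13%. Both elements were therefore above the surrounding sequence under both proteins. The octamer, searched without mismatches, was at 8.48% for Oct4, 6.82% for Oct4 S151M and 7.38% for its strongest sites. PORE was at 1.5%, 0.955% and 0.793%, against about 1% in the surroundings (0.976% for Oct4 and 1.03% for Oct4 S151M). The Sox site alone (CCATTGT or CCTTTGT, then any base but A) was found at 12.2% of Oct4, 7.42% of Oct4 S151M and 7.37% of the strongest Oct4 S151M sites. For the AP-1 site (TGACTCA or TGAGTCA), a mark of open fibroblast enhancers, the shares were 11.3%, 7.72% and 9.55%.

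The same contrast was seen along the ranking, with each list split by score into 10 equal groups. MORE or MORE+1 rose towards the top of both lists, from 6.23% in the lowest to 23.7% in the highest group of Oct4 and from 11.1% to 44.0% for Oct4 S151M. SoxOct rose from 7.45% to 23.0% in Oct4 but stayed between 5.03% and 6.45% in each group of Oct4 S151M. In the strongest 500 sites, MORE or MORE+1 was at 25% (21.4 to 29.0%) for Oct4 and 64.4% (60.1 to 68.5%) for Oct4 S151M. SoxOct in the same sites was at 23.0% (19.5 to 26.9%) and 3.0% (1.83 to 4.89%). The top Oct4 sites thus carried both elements about equally often, and the top Oct4 S151M sites carried mainly MORE.

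**Figure D2:**
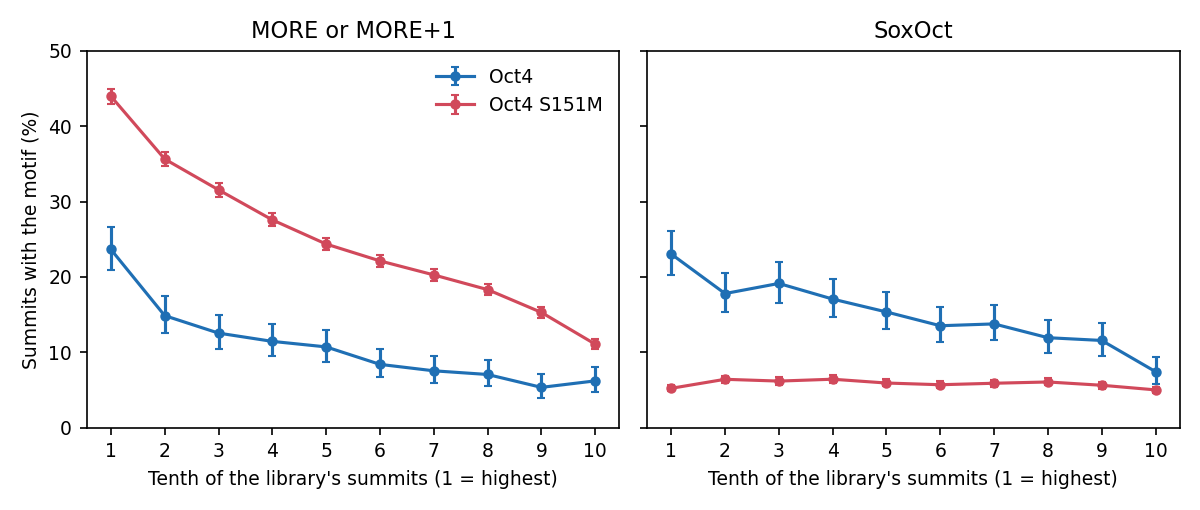
Share of summits (%) with MORE or MORE+1 (left) and SoxOct (right) within 100 bp, by score rank in 10 equal groups per library (1 is the highest), with 95% Wilson intervals. The Oct4 S151M line for MORE runs from 44.0% to 11.1%, above Oct4 in each group, while its SoxOct line is flat and below Oct4.

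The distance from motif to summit differed as well. The median distance of the MORE centre from the summit was 21 bp (18.5 to 23.5) for Oct4, 16.5 bp (16.5 to 17.5) for Oct4 S151M and 8.5 bp (8.5 to 9.5) for the strongest Oct4 S151M sites. At shared sites the Oct4 summits lay 20.5 bp and the Oct4 S151M summits 9.5 bp from the MORE centre. Over all sites the SoxOct centre was 23.5 bp (22 to 25) from the Oct4 summit and 28 bp (27 to 29) from the Oct4 S151M summit. It was 22 bp from the Oct4 summit and 23 bp from the Oct4 S151M summit at shared sites. The AP-1 site, which neither protein is known to contact, was at 45 bp in both lists. The scores of these sets differ, and their part in the distances was not tested.

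The most frequent forms of the MORE were not the same in both lists. The words shown are the 5 commonest 12-base MORE matches of either library, counted once a site, with a word and its reverse complement counted as one.
Commonest in Oct4 S151M: ATACATATGCAT
Rank 2 in Oct4 S151M: ATGCATATACAT
The perfect palindrome: ATGCATATGCAT
Rank 4 in Oct4 S151M: ATACATATTCAT
Rank 5 in Oct4 S151M: ATAAATATGCAT
Commonest in Oct4: ATGAATATGCAT
Rank 3 in Oct4: ATGCATATGCAC
Rank 5 in Oct4: ATGCATATGAAT

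The word ATACATATGCAT was found at 3431 Oct4 S151M sites (3.39%) and at 61 Oct4 sites (0.744%), and at 7.48% of the strongest Oct4 S151M sites. It deviates from the motif at 1 base, and 2 kb from Oct4 S151M sites it occurred in 0.0351% of windows. The palindrome ATGCATATGCAT was at 1.30% of Oct4 S151M, 4.06% of the strongest Oct4 S151M and 0.549% of Oct4 sites. ATGAATATGCAT, the form most often found under Oct4 at 78 sites (0.951%), was at 1.16% of Oct4 S151M sites. Of the words shown, ATGCATATGAAT alone was at a lower share of Oct4 S151M sites (0.352%) than of Oct4 sites (0.463%). Oct4 S151M sites with ATACATATGCAT were bound by Oct4 in 1.78% of cases (1.39 to 2.28%) and those with ATGAATATGCAT in 6.50% (5.22 to 8.06%). Those with ATGCATATGAAT were bound in 9.83% of cases (7.15 to 13.4%). Over all best MORE matches, base 3 of a half-site was A in place of G in 16.1% of half-sites under Oct4 S151M and in 6.49% under Oct4.

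Many of these matches lie in repeats, as marked by the soft-masked bases of the reference. The best MORE match was in a repeat at 51.7% of Oct4 S151M sites with a MORE and at 41.3% of such Oct4 sites, whereas 28.9% of positions 2 kb from the summits of either list are masked. For MORE+1 the order was the other way, with 28.5% of Oct4 S151M and 48.9% of Oct4 sites with that motif. For the SoxOct the shares were 20.5% and 17.6%. The word ATACATATGCAT was in a repeat at 87.5% of its Oct4 S151M sites, and ATGAATATGCAT at 32.6%. Of the sequences printed here, the Sort1 sequence is wholly masked, and 71.7% of the Kremen1, 36.7% of the Gnb1l, 70% of the Pou2f2, 88.3% of the Dop1a and 78.3% of the Srebf2 sequence is masked. With only summits whose window held no masked base (2231 for Oct4 and 18264 for Oct4 S151M), the MORE difference was 13.01 points (11.7 to 14.2) and the SoxOct difference −9.09 points (−10.7 to −7.54). Restricting the strongest 8199 in the same way gave a MORE difference of 35.6 points. Reads of low mapping quality had been discarded by the authors, and the placement of reads in repeats was not tested.

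Within these repeat-free windows the half-sites had a preferred spacing. Directly adjoining half-sites were present in 13.1% of Oct4 S151M windows, 33.2 times the share 2 kb away. A spacing of 1 base was present in 8.49%, or 22.9 times. In windows with neither, a spacing of 2 bases was present in 3.99% (9.15 times), and each spacing from 3 to 10 bases in 1.52 to 1.962%, or 4.85 to 5.75 times. For Oct4 the shares were 6.36% at 0 bases, 2.06% at 1 base and 2.05% at 2 bases, and 0.880 to 2.05% at 3 to 10 bases. The commonest single spacing was thus 0 bases for both proteins, and the shares at 1 and 2 bases stood above the wider spacings for Oct4 S151M. For Oct4 the shares at 1 and 2 bases were close to that at 4 bases (2.05%). With repeats kept, wider spacings were more frequent in Oct4 S151M windows without MORE or MORE+1. A spacing of 2 bases was then present in 13.8% of them, and in 26.5% at the strongest sites, and spacings of 6 and 10 bases in 7.90% and 6.74%, against 1.92% and 1.79% without repeats.

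**Figure D3:**
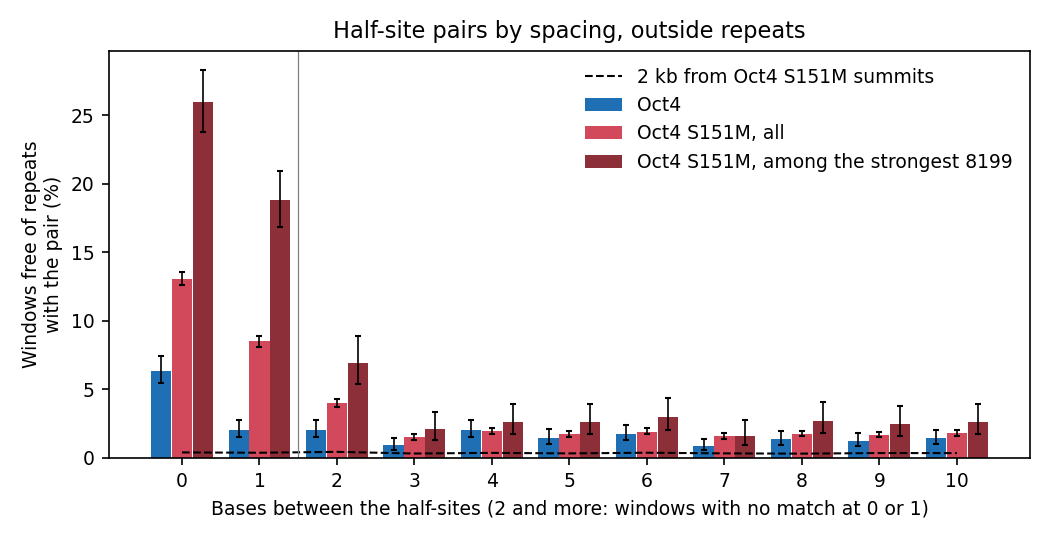
Share (%) of repeat-free windows (100 bp to either side of a summit) with a pair of MORE half-sites (at most 1 mismatch) at each spacing, with 95% Wilson intervals; the dashed line is the share 2 kb from Oct4 S151M summits, and spacings of 2 and more are counted in windows without a match at 0 or 1. Oct4 S151M windows reach 13.1%, 8.49% and 3.99% at 0, 1 and 2 bases and at most 1.962% beyond.

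Sites called free of POU motifs were in many cases near matches. Of the 66639 Oct4 S151M sites with no MORE, MORE+1, SoxOct or octamer, 55.4% held a MORE or MORE+1 with 2 mismatches or a pair spaced by 2 bases, with repeats kept, against 9.32% of windows 2 kb away. The share was 78.6% (77.3 to 79.8%) at the strongest of these sites and 28.8% (27.6 to 29.9%) at the 5752 Oct4 sites of this kind. The 3 highest such sites of Oct4 S151M without Oct4 scored 1116, 1082 and 1073, and each held a MORE with 2 mismatches, 5.5 bp from its summit. They are shown because they are near matches at the top of the list.
Between genes nearest Igf2bp2, chr16:22182397-22182456: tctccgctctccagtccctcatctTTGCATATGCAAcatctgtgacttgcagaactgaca
Intron of Dop1a, chr9:86479222-86479281: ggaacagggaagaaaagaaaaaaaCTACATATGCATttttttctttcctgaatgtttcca
Intron of Srebf2, chr15:82200722-82200781: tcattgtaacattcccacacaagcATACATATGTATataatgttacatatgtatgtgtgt

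Which Oct4 sites the mutant also bound depended on the motif. Of Oct4 sites with MORE or MORE+1 and no SoxOct, 782 of 809 (96.7%, 95.2 to 97.7%) were shared. Of those with SoxOct and no MORE, 1019 of 1160 (87.8%, 85.8 to 89.6%) were shared, and all 76 sites with both. The share was 84.6% for octamer sites without MORE or SoxOct and 73.1% for sites with none of these motifs. MORE sites thus exceeded SoxOct sites by 8.82 points (6.52 to 11.1), and SoxOct sites exceeded sites without a POU motif by 14.7 points (12.4 to 16.8). Sites with either element scored higher in Oct4 (medians 14.6 and 13.1) than motif-free sites (10.4), and within 4 equal groups by Oct4 score these differences ran from 2.45 (−0.00396 to 5.03) in the highest to 16.8 points in the lowest group for MORE over SoxOct. For SoxOct over motif-free sites they ran from 2.39 (−0.352 to 4.55) to 20.5 points. Against the strongest 8199 Oct4 S151M sites, MORE sites were shared in 76.9% of cases, sites with both elements in 60.5%, octamer sites in 21.9%, SoxOct sites in 13.7% and sites without a POU motif in 13.1%. SoxOct sites then differed from sites without a motif by 0.581 points (−1.48 to 2.85), and the difference between MORE and SoxOct was 63.2 points. Within the 4 groups by Oct4 score the first of these differences turned, with −3.37, −2.45, −2.85 and −1.30 points from the highest to the lowest group, and each interval spanned 0. MORE sites stood above both others in each of 4 equal groups of Oct4 sites by score. In the highest group 88.0% of MORE sites, 27.4% of SoxOct sites and 30.8% of motif-free sites were among the strongest mutant sites. In the lowest group the shares were 59.1%, 4.19% and 5.49%.

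**Figure D4:**
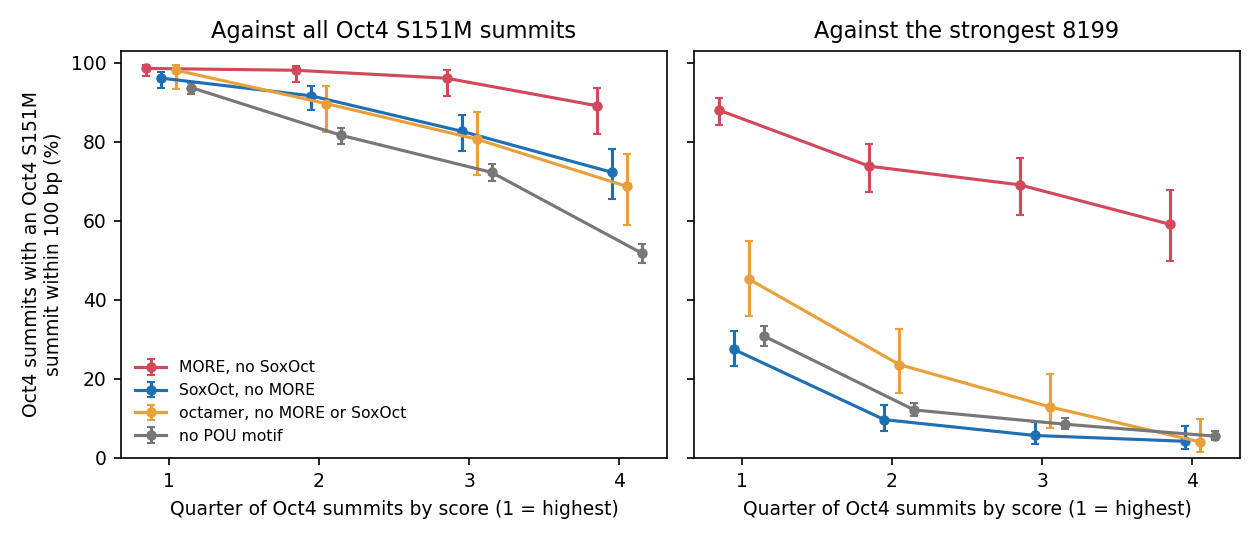
Share of Oct4 summits (%) with an Oct4 S151M summit within 100 bp, by motif and by Oct4 score in 4 equal groups (1 is the highest), against the whole mutant list (left) and its strongest 8199 summits (right), with 95% Wilson intervals. Against the strongest mutant summits, MORE sites are at 88.0% to 59.1% and SoxOct sites at 27.4% to 4.19%.

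Oct4-only sites held fewer POU motifs than shared Oct4 sites. MORE or MORE+1 was at 1.52% of the 1777 Oct4-only sites, against 13.4% of shared sites and 0.985% of windows 2 kb away. SoxOct was at 7.93% against 17.1%, and the octamer at 4.39% against 9.61%. AP-1 differed less, with 9.29% against 11.9%. Seen from the mutant, shared Oct4 S151M sites had less MORE than Oct4 S151M-only sites (13.8% against 25.8%) and more SoxOct (16.9% against 5.12%). Among the strongest 8199 the gap in MORE was smaller, 40.9% (38.6 to 43.3%) for shared against 46.2% (45.0 to 47.4%) for Oct4 S151M-only sites, and SoxOct was at 12.1% against 3.03%. Of the Oct4 S151M sites with SoxOct and no MORE, 19.9% were bound by Oct4, compared with 3.31% of those with MORE and no SoxOct. Among the strongest 8199 the shares were 59.6% (53.6 to 65.3%) and 17.97% (16.7 to 19.3%).

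At the 6422 shared Oct4 sites the ranking itself moved with the motif. Each site was given its percentile among the shared sites in either library. In such a ranking a rise of some sites lowers others, so a negative change is a change in order and not a fall in score. MORE sites had a median percentile of 61.7 in Oct4 and 89.7 in Oct4 S151M. Their median change was 19.2 points (16.7 to 22.5), and 79.2% of them ranked higher with the mutant. SoxOct sites had median percentiles of 57.6 and 49.1, a median change of −9.66 points (−11.1 to −7.79), and 34.2% ranked higher with the mutant. Sites with both elements changed by 8.63 points, octamer sites by 0.385 and motif-free sites by −5.14. MORE sites in the lowest of 4 ranges of Oct4 percentile, with a median of 12.7, had a median percentile of 83.0 in Oct4 S151M. SoxOct sites in that range went from 13.4 to 29.9 and motif-free sites from 12.3 to 27.6. In the highest range MORE sites were at 89.6 and 94.1, SoxOct sites at 88.4 and 68.2, and motif-free sites at 86.3 and 65.2. In both ranges SoxOct sites thus moved much as motif-free sites did. In score, MORE sites had medians of 15.0 in Oct4 and 355 in Oct4 S151M, and SoxOct sites 13.8 and 48.7. The fold enrichment over control that the authors' peak file gives for Oct4 S151M had a median of 53.4 at shared MORE sites and 13.2 at shared SoxOct sites. Over all 6422 pairs Spearman's rho between the scores was 0.402, a description across sites of a single pair of libraries, which are not independent replicates.

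**Figure D5:**
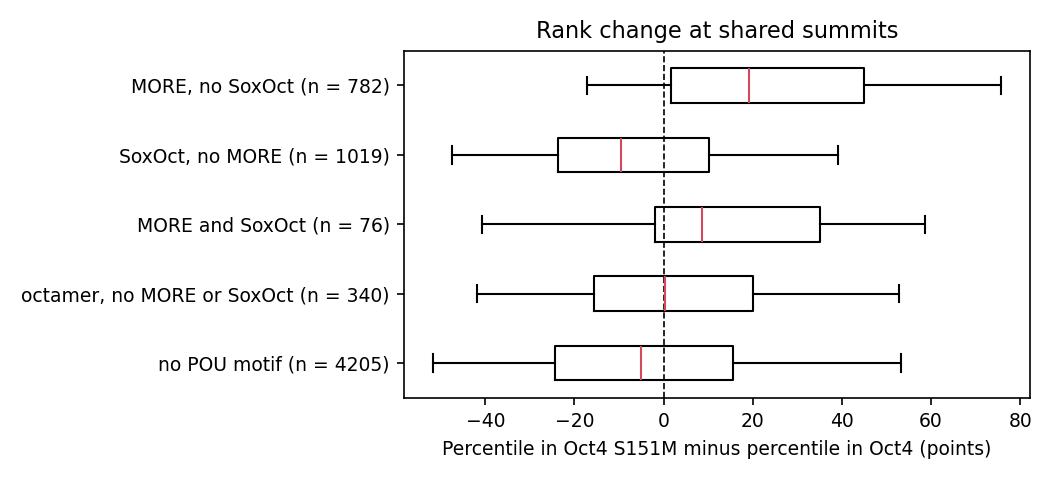
Change in percentile (points) of shared summits from Oct4 to Oct4 S151M by motif; red lines are medians, boxes the quartiles and whiskers the 5th and 95th percentiles over sites. The median is 19.2 for MORE sites and −9.66 for SoxOct sites.

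Other libraries of the series were read at the same sites. They were made in cells with Oct4, Oct4defSox2 or Oct6 M151S, none in Oct4 S151M cells. Oct4 sites shared with the mutant were bound by Oct4 again at day 5 in 29.1% of cases (28.0 to 30.2%) and Oct4-only sites in 7.99% (6.82 to 9.34%). At day 7 the shares were 15.6% and 3.77%. Shared sites also scored higher in Oct4, and within 4 equal groups by Oct4 score the difference at day 5 was 20.5, 11.3, 10.6 and 7.97 points from the highest to the lowest. At day 7 it was 12.7, 8.65, 5.18 and 5.40 points. Oct4defSox2, an Oct4 mutant made deficient in pairing with Sox2, bound 64.0% of shared and 34.0% of Oct4-only sites at day 1. In the highest of 4 equal groups by Oct4 score these shares were 79.7% and 68.0%, and in the lowest 50.5% and 25.03%. Oct6 M151S, which carries the converse exchange and was precipitated with an Oct6 antibody, bound 8.56% and 7.65%, a difference of 0.911 points (−0.573 to 2.26). Within the 4 groups by Oct4 score this difference was −3.94, −4.61 (−8.98 to −1.08), 1.06 and 1.13 points, so no single direction held. The title of that library places it at day 1 and its other label at day 2.

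Sox2 summits, from day 1 of Oct4-SK cultures, were found at 20.9% of shared and 16.2% of Oct4-only sites, a difference of 4.73 points (2.70 to 6.66). Within the 4 groups by Oct4 score the difference was 1.06, −4.99, 2.69 and 6.15 points from the highest to the lowest, and against the strongest 8199 mutant sites it turned to −3.96 points. No single direction therefore held for Sox2. By motif, Sox2 was at 23.1% of Oct4 sites with SoxOct and no MORE (20.8 to 25.6%) and at 10.4% of those with MORE and no SoxOct (8.47 to 12.7%). It was at 20.7% of Oct4 sites without a POU motif (19.7 to 21.8%) and at 18.9% of octamer sites. The SoxOct share was thus near that of motif-free sites, and MORE sites stood below both. Among the strongest Oct4 S151M sites Sox2 was at 20.2% of SoxOct sites (15.8 to 25.4%) and 2.05% of MORE sites (1.63 to 2.57%). There it was at 5.87% of motif-free and 7.14% of octamer sites. Of the strongest mutant sites without Oct4, 1.67% had a Sox2 summit, against 16.2% of the strongest shared ones.

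The position of the sites relative to genes differed by a few points. Promoters, taken as 1 kb around the start of a protein-coding gene, held 2.77% of Oct4 and 2.24% of Oct4 S151M sites, a difference of −0.529 points (−0.918 to −0.183). With the strongest 8199 the mutant had 3.24%, 0.476 points above Oct4 (−0.0477 to 1.00), so that the direction depended on the list length. Introns held 43.1% of Oct4, 44.8% of Oct4 S151M and 49.4% of the strongest Oct4 S151M sites, and 52.5%, 51.3% and 45.9% lay between genes. Over 100 kb from a coding start lay 38.8% of Oct4, 39.2% of Oct4 S151M and 32.1% of the strongest Oct4 S151M sites. The last share was −6.76 points from Oct4 (−8.22 to −5.29). The median distance to a start was 60391 bp for Oct4 and 45082 bp for the strongest Oct4 S151M sites. Oct4-only sites were in promoters more often than shared Oct4 sites (4.33% against 2.34%).

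Genes were read by the summits within 50 kb of their start. Of 21911 protein-coding genes, 23.7% had an Oct4 summit, 88.3% an Oct4 S151M summit and 28.8% one of the strongest 8199. With nearly 9 in 10 genes near a mutant site, counts over the whole mutant list say little about a gene group. Of 20 naive pluripotency genes, 8 (40.0%) had an Oct4 summit, 19 an Oct4 S151M summit and 3 (15.0%) one of the strongest. Of 18 mesenchymal genes, which the fibroblasts use, the counts were 10 (55.6%), 18 and 11 (61.1%). Of 14 epithelial genes they were 4 (28.6%), 13 and 3 (21.4%). For 9 AP-1 genes the counts were 2, 9 and 2, and for 25 POU and neural genes 6, 25 and 7 (28.0%). These lists are short and their genes were chosen for this cell system, and the counts are descriptions.

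The exons of the transduced genes need a separate remark. Oct4 summits lay in exons of Pou5f1 (1 summit), Sox2 (2) and Klf4 (2), and Oct4 S151M had none there. For Sox2 and Klf4 these are all of the Oct4 summits counted above, and reads from the retroviral cDNAs and from the genes cannot be told apart. The highest Oct4 summit near Pou5f1 lay outside its exons, 1975 bp from the start, with a score of 44.7 and a SoxOct element. The Oct4 S151M summit 14 bp away scored 148. The mutant's highest summit near Pou5f1, 8316 bp from the start and without a listed POU motif, scored 211, and the Oct4 summit 29 bp from it 16.4. The reporter carries Oct4 regulatory sequence too, and its share in this signal was not tested. Near Krt8, which encodes an epithelial keratin, Oct4 scored 69.7 and Oct4 S151M 315 at summits 48 bp apart. Near Col3a1, a fibroblast collagen gene, the scores were 58.6 and 110. Near Lin28a, which encodes an RNA-binding protein of pluripotent cells, Oct4 S151M scored 595 with no Oct4 summit within 50 kb of the start. The same held for Acta2, encoding smooth muscle actin (773, at 221 bp from the start), for the desmosome gene Dsp (531) and for Neurog2, a neurogenic transcription factor gene (349, at a MORE+1). At Pou2f2, which encodes Oct2, a MORE site had a score of 844 in Oct4 S151M and 8.0 in Oct4. At Pou2f1, encoding Oct1, a MORE site scored 254 and 5.58. Near Pou6f1, the gene of another POU factor, the highest Oct4 summit scored 28.7 and the mutant summit 6 bp away 33.7. The highest mutant summit there, over a MORE and a MORE+1, scored 539, and the Oct4 summit 13 bp from it 17.0. Near Fos, which encodes an AP-1 subunit, a MORE site scored 11.3 in Oct4 and 118 in Oct4 S151M, and the mutant's highest summit, 15720 bp from the nearest Oct4 summit, scored 665. For the other AP-1 genes named, the highest mutant scores were 210 for Jun, 110 for Fosl1 and 99.5 for Fosb. Jun had an Oct4 summit of 4.16, and the others none. Among the remaining genes, shared summits near Tfcp2l1, a naive pluripotency factor gene, scored 40.3 and 237. The highest mutant scores were 317 for Twist2, 309 for Vim, 213 for Tjp1, 118 for Krt18 and 14.6 for Klf4. The highest Oct4 scores were 33.7 for Klf4, 25.5 for Vim and 16.1 for Tjp1, at other positions than the mutant's highest summits. Weaker mutant summits lay 13 bp from this Vim summit (score 40.5) and 2 bp from this Tjp1 summit (39.9). For Klf4 the nearest mutant summit was 4129 bp away. No Oct4 summit lay near Twist2 or Krt18.

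Enhancers near Sox21 and Spata13 were examined by the study, the first for its SoxOct and the second for its MORE. For both genes the sequence at the highest Oct4 summit within 50 kb of the start is shown. Whether it is the fragment that the study examined was not checked. The highest Oct4 S151M site near Sox21, the Pou5f1 SoxOct and the Pou2f2 MORE are shown with them, because they set both elements side by side at named genes.
Sox21 SoxOct, chr14:118230320-118230382: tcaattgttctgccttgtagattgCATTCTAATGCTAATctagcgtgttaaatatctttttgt
Sox21 MORE, chr14:118226208-118226267: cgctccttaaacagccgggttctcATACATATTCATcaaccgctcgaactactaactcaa
Spata13 MORE, chr14:60653411-60653470: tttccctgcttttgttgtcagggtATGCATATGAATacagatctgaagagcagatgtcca
Pou5f1 SoxOct, chr17:35504025-35504087, minus strand: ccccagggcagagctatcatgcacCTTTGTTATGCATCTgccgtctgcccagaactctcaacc
Pou2f2 MORE, chr7:25104458-25104517: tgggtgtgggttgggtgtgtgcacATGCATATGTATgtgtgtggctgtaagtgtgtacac

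At the Sox21 SoxOct site, 6642 bp from the start, Oct4 had a score of 77.4 at rank 99, and the Oct4 S151M summit 7 bp away scored 150.5. The highest Oct4 S151M summit near Sox21 was another one, 4152 bp from the nearest Oct4 summit, at the MORE shown, with a score of 427 and rank 1205. At the Spata13 MORE the Oct4 summit scored 18.7, and the Oct4 S151M summit 18 bp away scored 338. The SoxOct site thus ranked high in Oct4, and the mutant's highest site at the same gene lay over a MORE.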

How the data were processed

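ChIP-seq summit lists of Oct4 and Oct4 S151M at day 1, and 5 further lists read at their sites, were used. Per the study's methods and the labels, the authors aligned paired-end reads to mm10 with Bowtie2 (2.2.5), discarded reads of low mapping quality and duplicates, and called peaks with MACS2 on each library. The deposited scores are −log10 p-values, and the deposited peak file of Oct4 S151M adds a fold enrichment over control, a linear ratio. Summits on chromosomes 1 to 19, X and Y were kept (17 of 8216 and 19 of 101170 left out). Motifs were searched in 201 bp windows of GRCm38, with windows 2 kb to either side as background, and genes were taken from GENCODE M21. Intervals are Wilson (shares), Newcombe (differences) and order-statistic (medians), computed in Python 3.11.15 with numpy 2.4.6 and scipy 1.17.1. Scripts were tested on simulated data. No count test was possible, since each group has 1 library.

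Named sites were drawn from the top 3 per motif and sharing class, with sites on chromosome 18 left out of this choice. They were ranked by the mean of both score percentiles for shared sites and by the library's own score otherwise. Named words were the 5 commonest MORE matches of either library, and named genes were drawn from up to 4 of the highest scoring per gene list, plus Sox21 and Spata13. The members, lists and motifs were chosen with earlier results of these data known. Spacings beyond 1 base, near matches, repeats and the sequences at named genes were added after the data were seen. Alternatives tried were the sharing distance, a score minimum of 10, list length, 1 summit per peak, motif mismatches, motif window, promoter distance, leaving out Oct6 M151S sites, and leaving out repeats.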

Additional observations from a re-analysis of the deposited data

How the results depend on the processing

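No paired analysis was possible because each group has 1 library. Of 69 alternative values for 9 results, 22 stayed within the interval of the reported value and 2 changed direction. With 8199 summits each, the Sox2 difference between shared and Oct4-only sites turned to −3.96 points and the promoter difference to 0.476; the shares of shared sites were 20.4% and 20.3%, the MORE difference 34.3, the SoxOct difference −10.2, retention of SoxOct over motif-free sites 0.581, of MORE over SoxOct 63.2, and the rank difference between MORE and SoxOct 52.0 points. At 50 bp and 250 bp, the Oct4 share was 62.1% and 88.5%, the reverse share 5.03% and 7.16%, the SoxOct retention difference 16.9 and 9.02, the MORE retention difference 12.4 and 4.53, and the Sox2 difference 1.89 and 14.0. With scores of at least 10, the shares were 86.8% and 5.08%, the SoxOct difference −11.8, the retention differences 9.78 and 5.68 and the promoter difference −0.110 (with promoters of 5 kb, −0.151). With the highest summit per peak, the Oct4 share was 76.2% and the MORE retention difference 11.6. With 1 mismatch fewer and 1 more, the MORE difference was 1.69 and 25.1, the SoxOct difference −1.32 and −19.7, the SoxOct retention difference 17.6 and 18.003 and the rank difference 23.6 and 22.3; with 1 fewer, the MORE retention difference was 4.54. In windows of 50 bp to each side, the MORE difference was 12.9 and the SoxOct difference −7.38. Without Oct6 M151S sites the reverse share was 5.84%. Without repeats, chosen after seeing the data, the shares were 64.0% and 7.81%, the MORE difference 13.01 and the MORE retention difference 11.8; with equal numbers as well, 35.6 for MORE, −10.1 for SoxOct and 53.9 for MORE retention. Fewer summits of both lists remain under the score minimum and the repeat filter, and fewer of the mutant list under equal numbers; the cause of the other shifts was not tested. The files give no depth for either library, and the study's library statistics were not used here, so a site missing from the shorter Oct4 list is not shown to be unbound.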
